A study of Homo sapiens with 6 samples.

Results

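The plasminogen activators and the serpins that act on them were followed as 5 genes: SERPINB2, SERPINE2, PLAU, PLAUR and PLAT, taken by their symbols from a table of 17862 genes. All 5 were found, and all 5 passed the filter on low counts that left 13710 genes. RNA-seq was run on SCC-9, an established line of human tongue squamous cell carcinoma, grown in DMEM/F12 with serum and hydrocortisone. The cells carried a short hairpin plasmid against MTHFD2, which encodes a mitochondrial enzyme of folate metabolism (shMTHFD2, 3 libraries), or a control hairpin (shNC, 3 libraries). The design text calls the modified cells knock-out and states 3 biological replicates in each condition, while the treatment label describes a knockdown, the term used here. The labels do not state how many hairpins were used, whether the cells were pools or clones, or how separate the cultures were. The p-values below therefore reflect only the scatter among the 6 libraries, which may be technical. The 5 genes were chosen with the difference between shMTHFD2 and shNC known, so their own fold changes are given as a description with no test.

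Plasminogen is an inactive protease precursor, and cleavage by an activator turns it into plasmin, which degrades fibrin and matrix proteins. Urokinase, the product of PLAU, works mostly at the cell surface, where it is held by its receptor, the product of PLAUR. Tissue-type activator, the product of PLAT, is best known for dissolving fibrin clots. The products of SERPINB2 (plasminogen activator inhibitor type 2) and SERPINE2 (protease nexin 1) belong to the serpins, inhibitors that trap a protease as it cleaves them. SERPINB2 is a product of keratinocytes and macrophages and stays largely inside the cell, while SERPINE2 is secreted and also inhibits thrombin.

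The upstream sequences below come from RefSeq (GRCh38.p14) and are shown for the gene with the largest difference, SERPINB2, and for PLAU and PLAUR, which had the same layout of values across libraries. They run 5′ to 3′ on the gene's strand. Capitals mark the AP-1 letters TGANTCA and the TATA letters TATAAA in SERPINB2, the GC box letters GGGCGG in PLAU and the AP-1 letters in PLAUR. For SERPINB2 the stretch is chr18:63887455-63887699, plus strand. For PLAU, which had 2 windows in the table, it is part of the second, chr10:73910882-73911103, plus strand. For PLAUR it is a stretch of 30 bases, chr19:43670337-43670366, minus strand.
SERPINB2: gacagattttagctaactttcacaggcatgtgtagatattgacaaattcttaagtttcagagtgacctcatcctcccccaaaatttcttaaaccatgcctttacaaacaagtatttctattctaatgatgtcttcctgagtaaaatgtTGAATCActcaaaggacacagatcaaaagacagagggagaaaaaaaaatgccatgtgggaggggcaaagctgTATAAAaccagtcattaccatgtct
PLAU: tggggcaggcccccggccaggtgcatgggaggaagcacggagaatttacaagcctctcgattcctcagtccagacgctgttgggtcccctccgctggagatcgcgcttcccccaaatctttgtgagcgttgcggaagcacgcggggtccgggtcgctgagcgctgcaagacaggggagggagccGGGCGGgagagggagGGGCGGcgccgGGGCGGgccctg
PLAUR: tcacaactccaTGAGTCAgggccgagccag

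RefSeq promoter windows of 300 bases, 250 before and 50 after a start, were searched for 4 of the 5 genes, in 6 windows. PLAT was left out of this search. Across 7 motifs searched on both strands, SERPINB2 and PLAUR held the AP-1 letters, beginning 102 and 186 bases before the start, as did 7.71% of 35116 windows. SERPINB2 also held the TATA letters beginning 30 bases before the start, found in 11.5% of windows. The second PLAU window held 3 GC boxes, a match present in 45% of windows, and both SERPINE2 windows held at least 1. The FOXO letters GTAAACA, searched because the series title names FOXO1 and present in 3.42% of windows, were in none of the 6. The letters TGACG of the cAMP response element (24.6% of windows) were in the SERPINB2 window and in 1 SERPINE2 window. The E-box CACGTG (7.26%) and the HRE core ACGTG (21.4%), which lies within it, overlapped in 1 SERPINE2 window, and PLAUR held the HRE core alone. A match describes letters in these windows and says nothing of binding, and PLAU and PLAUR had no motif of the 7 in common.

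Libraries held 18676999 to 19838989 estimated read counts. The targeted transcript, MTHFD2, was at 38.5, 29.1 and 58.5 TPM in shMTHFD2 replicates 1, 2 and 3, against 160, 168 and 150 TPM in shNC (log2 fold change -1.95, SE 0.21, edgeR adjusted p = 0.00924). Without shMTHFD2 replicate 1 or any single shNC replicate its edgeR adjusted p was 0.0668 to 0.0918. TPM is scaled to gene length, so levels of different genes can be set side by side. Knockdown replicate 2 stood apart: across genes, its log2 CPM correlated with the shNC libraries at 0.9459 to 0.9555, while knockdown replicate 3 did so at 0.9815 to 0.9836. Pairs of libraries within a group correlated at 0.9575 to 0.9843 in shMTHFD2 and at 0.9919 to 0.994 in shNC. All 8 squamous keratinocyte markers were detected, with a summed level of 7014 to 9076 TPM in shMTHFD2 and 7741 to 8648 TPM in shNC. The 6 fibroblast markers summed to 12.7 to 24.2 TPM in shMTHFD2 and 6.05 to 8.71 TPM in shNC, most of it COL1A1, and LUM, PDGFRB and COL3A1 stayed under 1 TPM in every library. The 4 endothelial markers summed to 0.4 to 0.57 TPM in shMTHFD2 and 0.62 to 0.7 TPM in shNC, each under 1 TPM. Of 5 leukocyte markers, 4 were in the table and summed to 145 to 208 TPM in shMTHFD2 and 143 to 159 TPM in shNC. CD68 carried most of this sum, while PTPRC and CD3E stayed under 1 TPM. The other, CD14, was at 10.95 to 15.8 TPM in shMTHFD2 and 14.3 to 23.6 TPM in shNC. The part of these markers in the results was not tested.

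SERPINB2 was lower in every knockdown library. Its level was 54.1, 34.8 and 88.6 TPM in shMTHFD2 replicates 1, 2 and 3, against 261, 306 and 253 TPM in shNC. The groups did not overlap, and the highest knockdown library lay well under the lowest control. The mean was 59.2 ± 27.2 TPM in shMTHFD2 and 274 ± 28.6 TPM in shNC (SD, n = 3 each), a log2 fold change of -2.28 (SE 0.29) and 21.6% of the control level. The knockdown libraries stood at 19.8%, 12.7% and 32.4% of the shNC mean, so that replicate 2 was lowest and replicate 3 highest. The values rest on 608 to 1539 estimated counts in shMTHFD2 and 4604 to 5555 in shNC. In a culture measured in bulk, fewer cells that make a transcript and less of it per cell cannot be told apart. SERPINB10 overlaps SERPINB2 on the same strand in GENCODE 29, so reads of the pair could be split. SERPINB10 itself was at 0.33 ± 0.20 TPM in shMTHFD2 and 0.32 ± 0.16 TPM in shNC.

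SERPINE2 differed the other way. It was at 113, 77.2 and 87.3 TPM in shMTHFD2 replicates 1, 2 and 3, against 59.9, 56.5 and 59.9 TPM in shNC. The groups did not overlap, although the knockdown libraries were spread over a wider range than the controls. The mean was 92.5 ± 18.4 TPM in shMTHFD2 and 58.7 ± 1.97 TPM in shNC (SD, n = 3 each), a log2 fold change of 0.60 (SE 0.15). Replicate 1 was highest for SERPINE2 and replicate 3 was highest for SERPINB2, so both serpins had a different order of knockdown libraries.

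**Figure D1:**
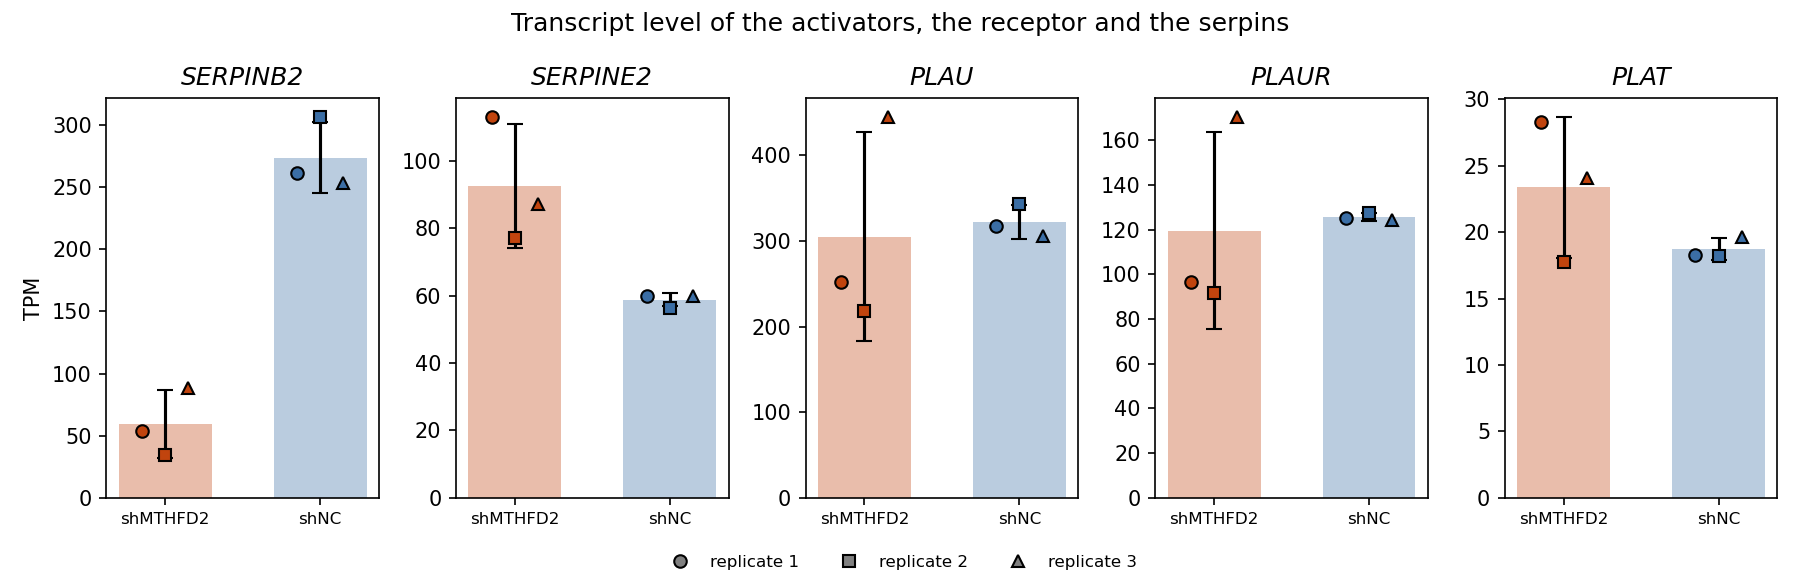
TPM of the 5 genes in each library, shMTHFD2 left and shNC right in each panel; bars are group means, error bars the SD of 3 libraries, and symbols the replicates. SERPINB2 is lower and SERPINE2 higher in all 3 shMTHFD2 libraries, while PLAU and PLAUR in shMTHFD2 lie on both sides of the shNC values.

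For the activator PLAU and its receptor PLAUR the group means lay close together, but the knockdown libraries disagreed with each other. PLAU was at 252, 218 and 445 TPM in shMTHFD2 replicates 1, 2 and 3, against 317, 343 and 305 TPM in shNC. PLAUR was at 96.7, 91.5 and 170 TPM in shMTHFD2 replicates 1, 2 and 3, against 125, 128 and 124 TPM in shNC. For both genes shMTHFD2 replicates 1 and 2 lay below every control library and replicate 3 lay above every control library. That layout was found for 8.15% of the 13710 tested genes, and it was singled out for these 2 genes after their values were seen. The mean of PLAU was 305 ± 122 TPM in shMTHFD2 and 322 ± 19.5 TPM in shNC, and that of PLAUR 120 ± 44.2 TPM in shMTHFD2 and 126 ± 1.74 TPM in shNC (SD, n = 3 each). The log2 fold changes were -0.14 (SE 0.23) for PLAU and -0.14 (SE 0.21) for PLAUR, each smaller than its error. Without shMTHFD2 replicate 3 they were -0.46 (SE 0.10) and -0.43 (SE 0.09), and without shMTHFD2 replicate 2 they were 0.05 (SE 0.19) and 0.02 (SE 0.18). A gene of the opposite strand, C10orf55, overlaps PLAU in GENCODE 29, and with the strand setting of the counting not known their reads cannot be told apart. PLAUR overlaps RN7SL368P on the same strand, a gene not in the table.

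PLAT, the tissue-type activator, was the least abundant of the 5. It was at 28.3, 17.7 and 24.1 TPM in shMTHFD2 replicates 1, 2 and 3, against 18.3, 18.2 and 19.7 TPM in shNC. Replicates 1 and 3 were above every control library and replicate 2 was below them, so the groups overlapped. The mean was 23.4 ± 5.30 TPM in shMTHFD2 and 18.7 ± 0.82 TPM in shNC (SD, n = 3 each), a log2 fold change of 0.27 (SE 0.17), which was 0.10 (SE 0.15) without shMTHFD2 replicate 1 and 0.44 (SE 0.11) without replicate 2.

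Of the 5 genes, the groups did not overlap for 2, SERPINB2 and SERPINE2, against 35.7% of all tested genes. The fit across all genes, edgeR's quasi-likelihood test with a Benjamini-Hochberg adjusted p under 0.05, placed 1 of the 5, SERPINB2, past the threshold, beside 5.43% of all tested genes (407 or 2.97% higher and 338 or 2.47% lower in shMTHFD2). With upper quartile scaling the split over all genes was 455 higher and 210 lower, and with total counts 449 higher and 230 lower. These counts of the 5 genes describe genes picked from this contrast and carry no weight as a test. They also depended on single libraries: 0 of the 5 passed without shMTHFD2 replicate 1 or without any of the shNC replicates 1, 2 and 3, where 0.00716 to 0.194% of all genes passed. Without shMTHFD2 replicate 2, 3 passed (SERPINB2, SERPINE2 and PLAT), beside 14.2% of all genes tested there. Without shMTHFD2 replicate 3, 4 passed (all but PLAT), beside 26.3% of all genes tested there. With all 6 libraries, DESeq2 called 2 of the 5, SERPINB2 and SERPINE2, beside 14.5% of all genes it tested.

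**Figure D2:**
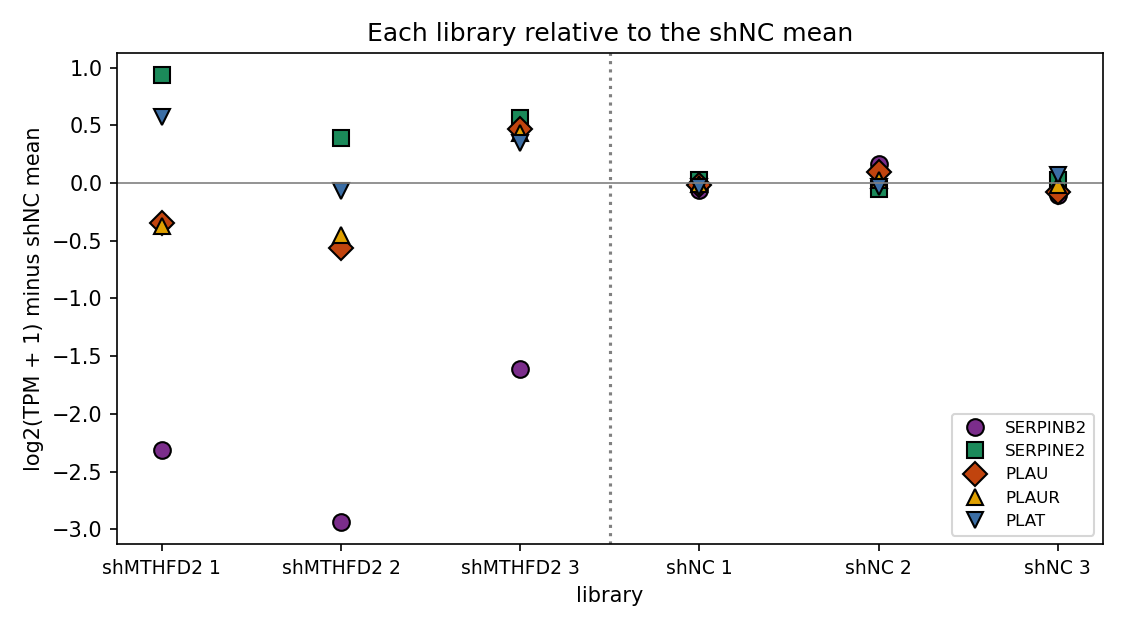
Difference of log2(TPM + 1) from the shNC mean for each gene in each library, shMTHFD2 libraries left of the dotted line and shNC libraries right of it. SERPINB2 lies at -2.31, -2.93 and -1.61 in shMTHFD2 replicates 1, 2 and 3, SERPINE2 lies above 0 in all 3, and PLAU and PLAUR lie almost on top of each other, below 0 in replicates 1 and 2 and above 0 in replicate 3.

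The spread within the knockdown group was wide for 3 of the genes. On the log2(TPM + 1) scale the SD over the shMTHFD2 libraries was 0.66 for SERPINB2, 0.54 for PLAU and 0.49 for PLAUR, against 0.15, 0.09 and 0.02 over the shNC libraries. Among 10286 genes with a mean of at least 5 TPM, 97.0%, 93.5% and 91.2% had a smaller SD than SERPINB2, PLAU and PLAUR in shMTHFD2, where the median SD was 0.21. In shNC the same share was 87.5%, 57.1% and 4.66%, with a median SD of 0.08. SERPINE2 and PLAT lay nearer the middle in shMTHFD2 but above it, with SDs of 0.28 and 0.33. A smaller SD was found for 66.5% and 75.2% of genes in shMTHFD2, and for 24.2% and 34.0% in shNC.

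The order of levels per length differed between the groups at SERPINB2. In shMTHFD2 the order of group means was PLAU, PLAUR, SERPINE2, SERPINB2 and PLAT. PLAU and PLAUR did not overlap there, whereas the ranges of PLAUR and SERPINE2 overlapped, as did those of SERPINE2 and SERPINB2. In shNC the order was PLAU, SERPINB2, PLAUR, SERPINE2 and PLAT. PLAU (305 to 343 TPM) and SERPINB2 (253 to 306 TPM) overlapped across the control libraries, although PLAU was the higher in each single library, and the other neighbours did not overlap. In TPM, SERPINE2 was above SERPINB2 in shMTHFD2 replicates 1 and 2 and about level with it in replicate 3, while SERPINB2 was above SERPINE2 in every control library.

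Ratios within a library do not depend on how libraries are scaled, and they are given as a description. The ratio of PLAU to PLAUR was 2.61, 2.38 and 2.61 in shMTHFD2, against 2.53, 2.69 and 2.455 in shNC. It overlapped between the groups, with a difference of -0.02 in mean log2 ratio. The ratio of PLAU to SERPINB2 was 4.66, 6.25 and 5.02 in shMTHFD2, against 1.21, 1.12 and 1.20 in shNC, a difference of 2.16 in mean log2 ratio. That ratio was more uniform across the knockdown libraries, with an SD of 0.22 on the log2 scale, than either PLAU or SERPINB2 alone. The ratio of PLAU to SERPINE2 was 2.23, 2.82 and 5.10 in shMTHFD2, against 5.30, 6.08 and 5.10 in shNC. Replicate 3 of the knockdown thus matched the lowest control. The ratio of PLAT to SERPINE2 was 0.25, 0.23 and 0.28 in shMTHFD2, against 0.31, 0.32 and 0.33 in shNC.

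**Figure D3:**
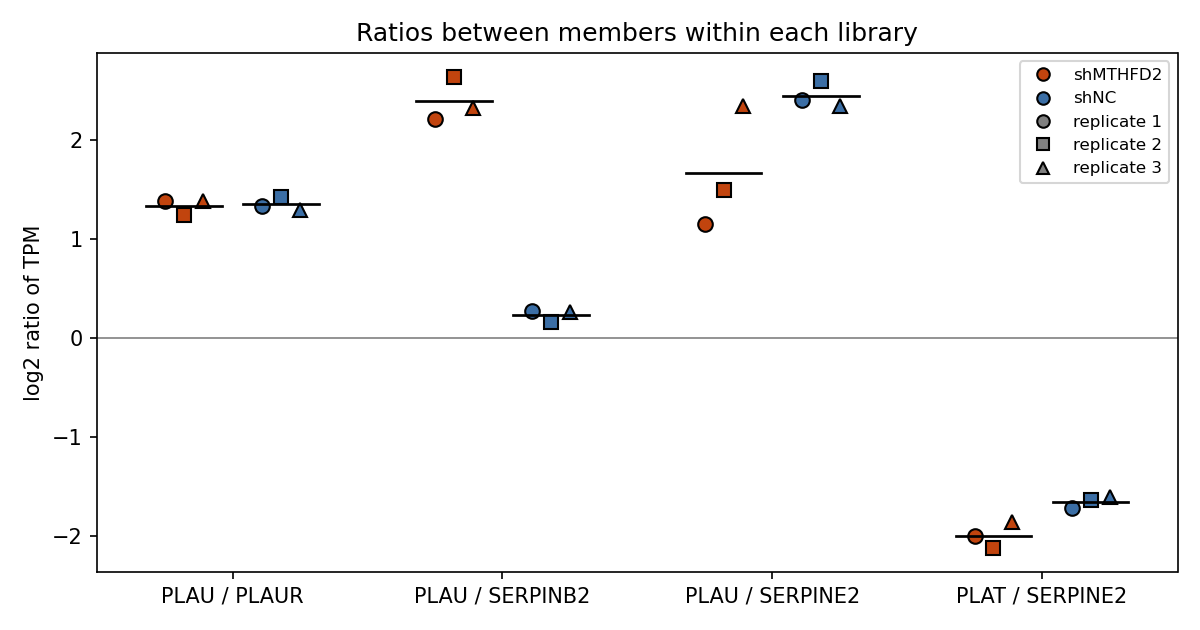
Log2 ratio of TPM for 4 pairs of genes in each library, shMTHFD2 left and shNC right within each pair; horizontal lines are group means. The ratio of PLAU to SERPINB2 separates the groups by 2.16 in the mean, while the ratio of PLAU to PLAUR has means of 1.34 in shMTHFD2 and 1.355 in shNC.

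The genes most like each of the 5 were sought by the smallest root mean square distance between centred log2(TPM + 1) values over the 6 libraries, among 10253 other genes. With 6 libraries in 2 groups such likeness is a description. The gene nearest to SERPINB2 was MTHFD2 itself, the hairpin's target, at a distance of 0.20. MTHFD2 had the same order of knockdown libraries as SERPINB2, with replicate 2 lowest and replicate 3 highest, and in both genes shNC replicate 2 was the highest of the 6. The prostaglandin receptor gene PTGER4 (0.27) and the activin antagonist FST (0.36) came next, with the same order of knockdown libraries. The share of all genes with that order was not counted. Across genes, replicate 2 of the knockdown correlated least with the shNC libraries and replicate 3 most. Nearest to SERPINE2 were GLIPR2 (0.03), the ephrin gene EFNA1 (0.07) and IGFBP3 (0.09), a binding protein of insulin-like growth factors. Nearest to PLAU were the calcium channel gene ITPR2 (0.04), INCENP (0.05), which encodes a protein of the chromosomal passenger complex, and the complement gene C3 (0.06), and PLAUR stood 5th of the 10253. Nearest to PLAUR were the aminopeptidase gene LAP3 (0.03), C3 (0.03) and the helicase gene DDX60 (0.04). C3 was at 118, 107 and 198 TPM in shMTHFD2 replicates 1, 2 and 3, against 152, 156 and 151 TPM in shNC, the same layout as PLAU and PLAUR. Nearest to PLAT were ZNF600 (0.04), C1RL (0.07) and IVNS1ABP (0.07).

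Around the 5 genes, 58 others of plasminogen activation and cell surface coagulation were followed, of which 57 were in the table and 43 were tested. Of the 43, 6 rose and 0 fell, which is 14%, beside the 5.43% of all tested genes called. The median log2 fold change of the 43 was 0.20, against 0.01 over all tested genes. Without shMTHFD2 replicate 1, or without shNC replicate 1, 2 or 3, 0 of the 43 passed. Without shMTHFD2 replicate 2, 8 rose and 3 fell, beside 14.2% of all genes called, and without shMTHFD2 replicate 3, 10 rose and 5 fell, beside 26.3% of all genes called. DESeq2 called 8 higher and 3 lower, beside 14.5% of all genes it tested, and 15 of the 43 (34.9%) had an unadjusted p under 0.05 in edgeR, beside 28.7% of all tested genes.

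Of the receptors that clear activator and inhibitor complexes, LRP1 and VLDLR were among the genes that rose. LRP8 of the same list had a lower estimate (log2 -0.69, SE 0.18, edgeR adjusted p = 0.0624), called by DESeq2 but not by edgeR. LRP1, the endocytic receptor that takes up such complexes, was at 15.4, 19.2 and 16.9 TPM in shMTHFD2, against 8.14, 7 and 9.10 TPM in shNC. Every knockdown library was above every control library, with a log2 fold change of 1.04 (SE 0.14, edgeR adjusted p = 0.0169). The related receptor VLDLR, at a low level, was at 1.73, 1.32 and 2.56 TPM in shMTHFD2, against 0.64, 0.84 and 0.66 TPM in shNC (log2 1.33, SE 0.26, edgeR adjusted p = 0.036). LYPD3, a relative of the urokinase receptor, rose to 65.5 ± 11.6 TPM in shMTHFD2, against 34.6 ± 3.26 TPM in shNC (log2 0.86, SE 0.15, edgeR adjusted p = 0.0275). The fibronectin receptor chain ITGA5 rose to 194 ± 19.3 TPM in shMTHFD2, against 124 ± 4.36 TPM in shNC (log2 0.58, SE 0.10, edgeR adjusted p = 0.0258). These 4 were the calls among 15 tested clearance receptors and partners of the urokinase receptor (26.7%, beside 5.43% of all tested genes). Of the 15, 7 had a negative estimate. The most abundant, CAV1, the coat protein of caveolae, was at 651 ± 174 TPM in shMTHFD2 and 1074 ± 105 TPM in shNC (log2 -0.78, SE 0.18, edgeR adjusted p = 0.0539). CAV1 passed in DESeq2 (adjusted p = 0.00281) and without shMTHFD2 replicate 2 (edgeR adjusted p = 0.0106) or 3 (0.0201).

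Among inhibitors apart from SERPINB2 and SERPINE2, 2 of 9 tested rose (22.2%), beside 2.97% of all tested genes. The 9 estimates were above 0, as were 6994 of 13710 over all tested genes. SERPINB2, an inhibitor with a log2 fold change of -2.28, is not among the 9. SERPING1, the inhibitor of the first complement component and of plasma kallikrein, was at 19.6, 20.1 and 30.3 TPM in shMTHFD2, against 6.74, 6.04 and 9.25 TPM in shNC (log2 1.60, SE 0.23, edgeR adjusted p = 0.0195). SPINT1, a Kunitz-type inhibitor of matriptase and of the activator of hepatocyte growth factor, was at 178, 180 and 171 TPM in shMTHFD2, against 131, 124 and 128 TPM in shNC (log2 0.41, SE 0.09, edgeR adjusted p = 0.0435). The related SPINT2 was the most abundant of the 9, at 417 ± 8.55 TPM in shMTHFD2 and 374 ± 5.64 TPM in shNC (log2 0.10, SE 0.09, edgeR adjusted p = 0.441). The calls of the 6 genes that rose ended without shMTHFD2 replicate 1 or without any single shNC replicate, with edgeR adjusted p-values from 0.0689 to 0.233. The call of VLDLR also ended in limma-trend on TPM (adjusted p = 0.0694) and that of SPINT1 without the filter on low counts (edgeR adjusted p = 0.053).

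In the remaining groups edgeR and limma called 0 genes, and DESeq2 called 1, HMGB1, lower, among the plasminogen-binding proteins. Of 6 tested activating proteases 1 had an unadjusted p under 0.05, and the most abundant, the cathepsin gene CTSB, was at 407 ± 52.3 TPM in shMTHFD2 and 340 ± 20.7 TPM in shNC (log2 0.21, SE 0.13, edgeR adjusted p = 0.303). PLG, which encodes plasminogen, was listed at 0, 0 and 0.11 TPM in shMTHFD2 and at 0 in all 3 shNC libraries, where a count of 0 allows up to 0.151 to 0.155 CPM for counting error only. Of 6 tested plasminogen-binding proteins 5 had a negative estimate and 3 an unadjusted p under 0.05, which 28.7% of all tested genes had. The most abundant of these, ANXA2, which binds plasminogen and tissue-type activator on cells, was at 3638 ± 503 TPM in shMTHFD2 and 4028 ± 103 TPM in shNC (log2 -0.21, SE 0.11, edgeR adjusted p = 0.233). Of 7 tested genes of cell surface coagulation 0 had an unadjusted p under 0.05, and the most abundant, tissue factor (F3), was at 605, 258 and 642 TPM in shMTHFD2, against 654, 557 and 630 TPM in shNC. Tissue factor in shMTHFD2 replicate 2 lay far below the other 5 libraries (log2 -0.35, SE 0.30, edgeR adjusted p = 0.449).

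**Figure D4:**
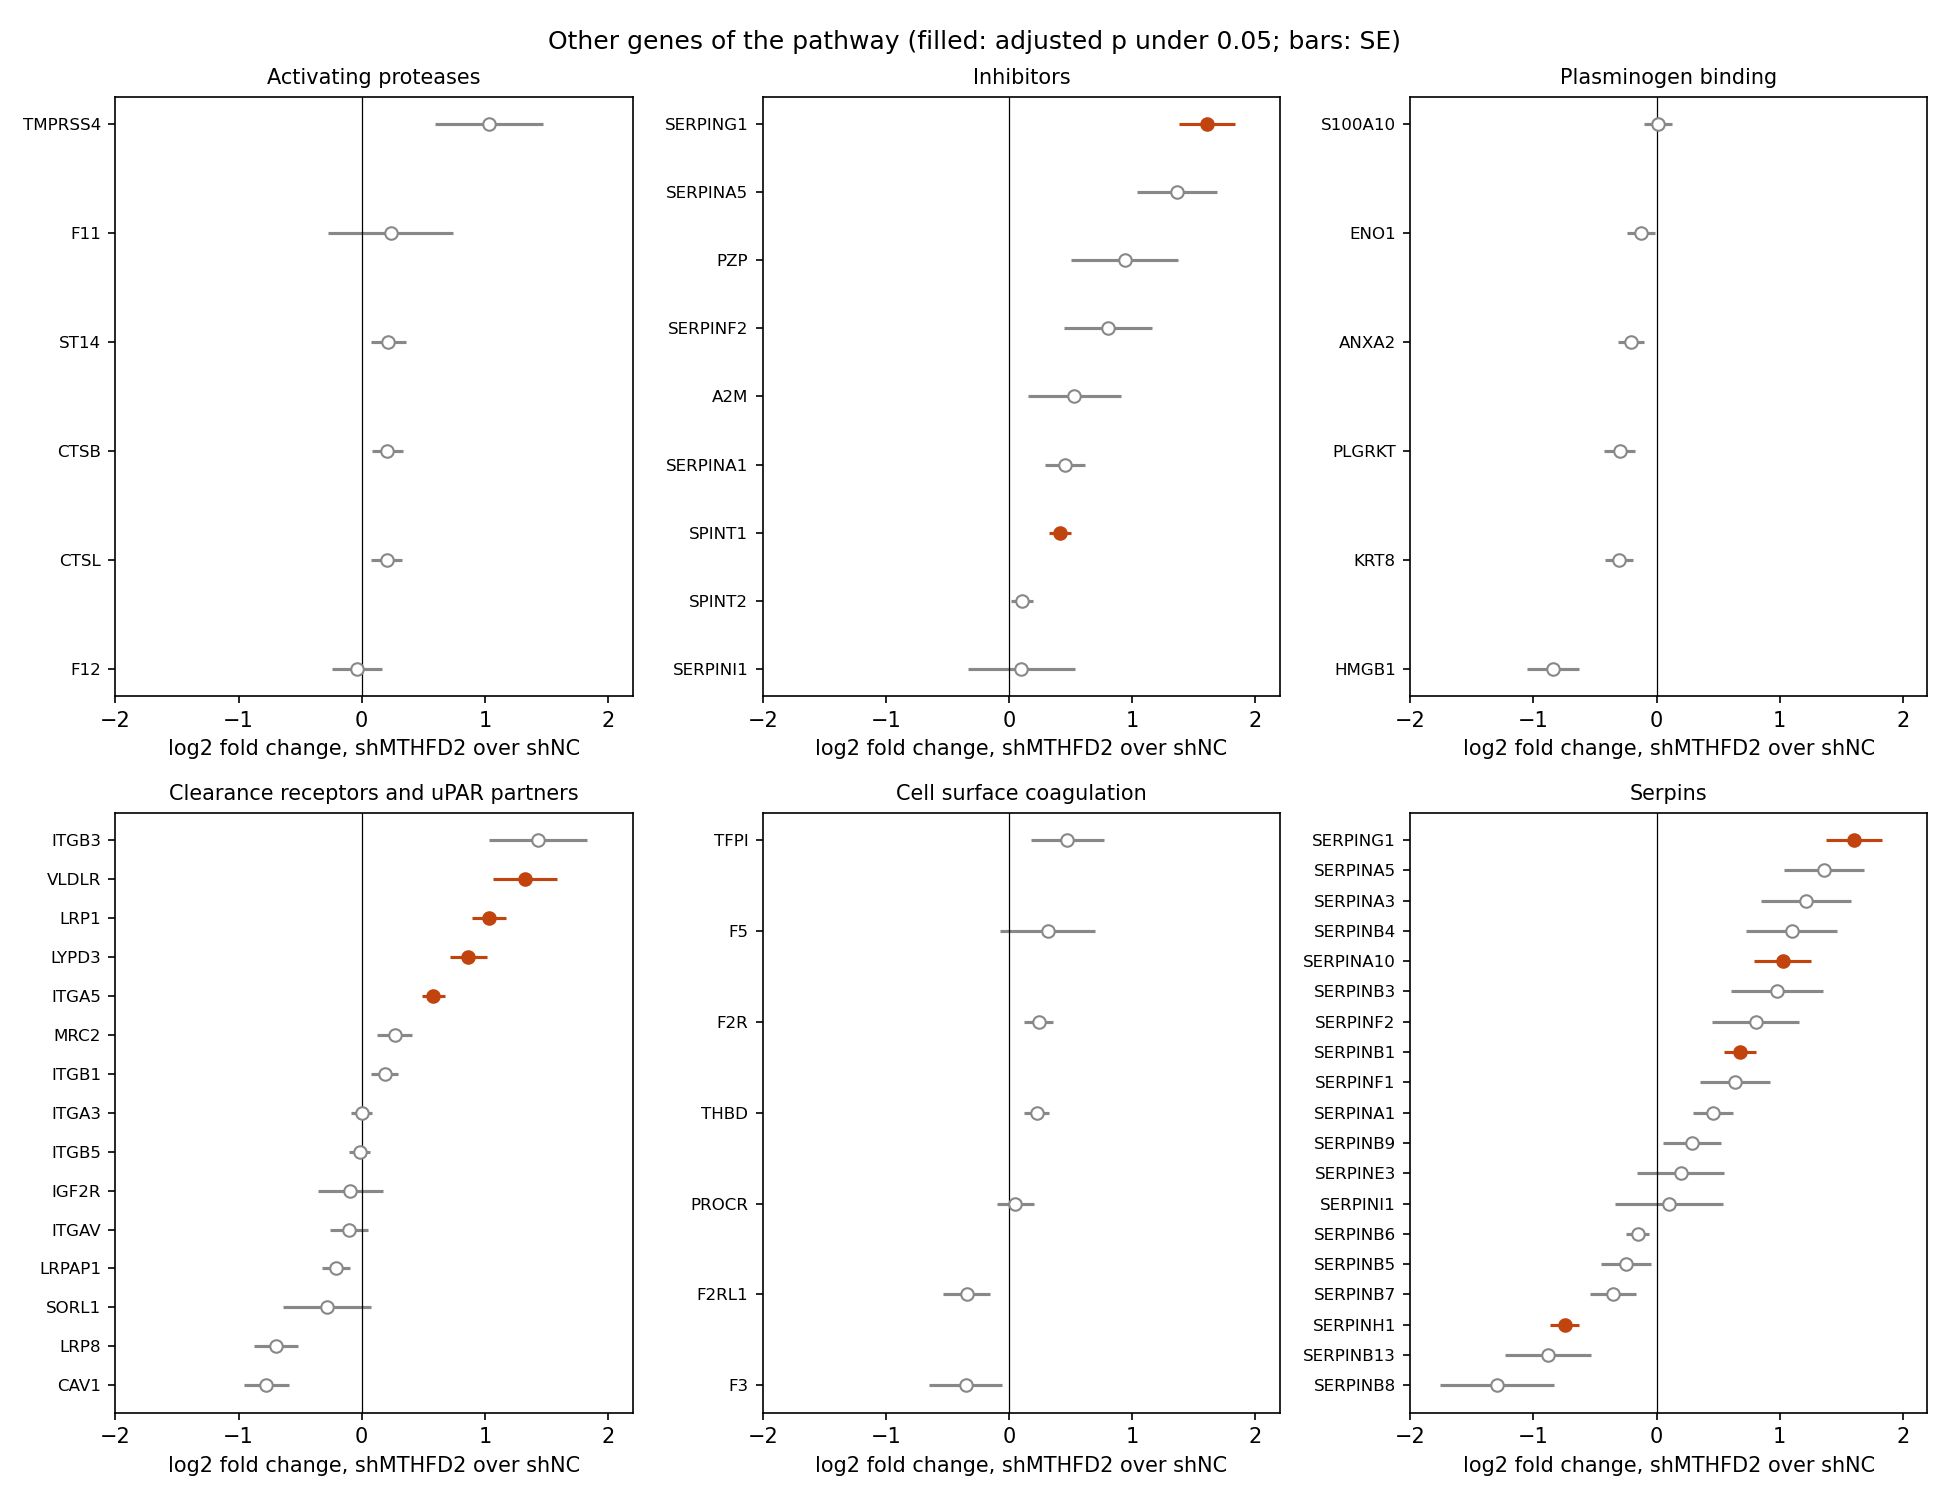
Log2 fold change of shMTHFD2 over shNC with its SE for the tested genes followed in the 5 pathway groups and for 19 serpins other than SERPINB2 and SERPINE2. Filled points passed an adjusted p of 0.05 in edgeR's fit across all genes: 6 genes of the pathway groups, all to the right of 0, and 4 serpins, of which SERPINH1 lies to the left. SERPING1, SERPINA5, SERPINA1, SERPINF2 and SERPINI1 stand in both the inhibitors and the serpins.

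Besides SERPINB2 and SERPINE2, 28 serpins of the table were followed, some of them also on the list of inhibitors, and 19 were tested. Of the 19, 3 rose and 1 fell, beside 5.43% of all genes called, and 11 (57.9%) had an unadjusted p under 0.05, beside 28.7% of all tested genes. SERPINH1, the collagen chaperone of the endoplasmic reticulum, was at 61.2, 70.2 and 85.6 TPM in shMTHFD2, against 116, 120 and 115 TPM in shNC (log2 -0.75, SE 0.12, edgeR adjusted p = 0.0233). SERPINB1, an inhibitor of neutrophil elastase, rose to 153 ± 8.38 TPM in shMTHFD2, against 91.0 ± 13.6 TPM in shNC (log2 0.67, SE 0.13, edgeR adjusted p = 0.0343). SERPINA10, an inhibitor of coagulation factor X, rose at a low level, to 1.37 ± 0.14 TPM in shMTHFD2, against 0.66 ± 0.04 TPM in shNC (log2 1.02, SE 0.23, edgeR adjusted p = 0.0483). Its call ended without the filter on low counts (edgeR adjusted p = 0.0552) and in limma-trend on TPM (adjusted p = 0.0715). The third that rose was SERPING1. The most abundant of the 19 over the 6 libraries, SERPINB6, an intracellular serpin, was at 122 ± 10.7 TPM in shMTHFD2 and 129.7 ± 3.42 TPM in shNC (log2 -0.15, SE 0.09, edgeR adjusted p = 0.300). Of the 19, 0 passed without shMTHFD2 replicate 1 or without any single shNC replicate, 10 passed without shMTHFD2 replicate 3, where 26.3% of all genes did, and DESeq2 called 7, beside 14.5% of all genes.

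SERPINB2 lies in a cluster of 10 clade B serpin genes on chromosome 18, between SERPINB7 and SERPINB10 in the order of RefSeq. Of its neighbours in the cluster, 6 were tested and edgeR called 0, with 4 estimates below 0 and 2 above, and 4 unadjusted p-values under 0.05, beside 28.7% of all tested genes. DESeq2 called 1 of them, SERPINB4, higher in shMTHFD2, and limma called 0. SERPINB8 was at 9.91, 4.51 and 22.3 TPM in shMTHFD2, against 31.5, 32.4 and 24.9 TPM in shNC (log2 -1.30, SE 0.46, edgeR adjusted p = 0.125). SERPINB3 (log2 0.98, SE 0.37) and SERPINB4 (log2 1.10, SE 0.37) had edgeR adjusted p-values of 0.141 and 0.113. Those 2 genes are near-identical copies whose reads the counting could have split, and their values are uncertain. The other tested genes of the cluster, SERPINB5, SERPINB7 and SERPINB13, had log2 fold changes of -0.25, -0.36 and -0.88. SERPINB3, SERPINB4, SERPINB5, SERPINB7, SERPINB8 and SERPINB13 were named after their values were seen. Whether any of these differs from SERPINB2 was not tested.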

How the data were processed

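Per the file headers, the authors deposited TPM, FPKM and read counts for each library. The read counts the authors deposited are estimated counts, since 53.0 to 56.0% of values per library are whole within 0.001. The TPM used for levels are the authors' own values. The FPKM deposited by the authors served only for an alternative ratio. Another 14 value columns were not used. Aligner, counter and strand setting: not given in the sources used here. A mouse build, mm10, stands in the submitters' processing notes of these human samples, so the only coordinates printed are those of RefSeq's promoter windows on GRCh38.p14. Of 17862 identifiers, 17793 are in RefSeq's human gene table.

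Counts were rounded, filtered with filterByExpr, scaled by TMM and tested by edgeR 4.0.16 (quasi-likelihood, robust) in R 4.3.3 without covariates, adjusted by Benjamini-Hochberg over 13710 genes. Each SE was derived from the log2 fold change and its F statistic. A log2 scale used TPM + 1. The test was checked on simulated counts with equal spread in both groups. That check does not cover the wider spread within shMTHFD2. Replicates were not duplicates, with a chi-square per degree of freedom of at least 3.64. Named genes were the 5 members, MTHFD2, list genes past the threshold (up to 5 per group), each group's most abundant gene and the 3 most similar genes per member. A gene of the inhibitor and serpin lists is not reported here and is not in their counts. Members and lists were chosen with earlier results of these data known. Alternatives were each library left out, a replicate block, other scalings and filters, DESeq2 1.42.0, limma 3.58.1 (voom, and trend on log2 TPM) and other units of the ratios. Figures used matplotlib 3.10.9 under Python 3.11.15.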

Additional observations from a re-analysis of the deposited data

How the results depend on the processing

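Leaving out single libraries moved the number of genes passing edgeR's threshold between 1 and 3651 over all genes (745 with all 6), between 0 and 15 in the pathway list (6 with all 6) and between 0 and 10 among the serpins (4 with all 6). DESeq2 called 1983 genes in all, 11 of the pathway list and 7 serpins. The replicate number as a block gave 16, 1 and 1, and 0 of the 5 members. Same-numbered libraries did not deviate together (correlations of their deviations 0.00, -0.24 and -0.19). With deviations from means of 3 libraries, this cannot decide whether the numbers pair the samples. Other scalings, filters, limma-voom and limma-trend on TPM kept the 3 counts within 1.5 times. SERPINB2 stayed between -2.64 and -2.005 on the log2 scale in every alternative and SERPINE2 between 0.41 and 0.71. PLAU and PLAUR turned to 0.05 and 0.02 without shMTHFD2 replicate 2. The differences in ratios moved by less than the spread between libraries. The causes were not tested. Precision is limited by 3 libraries per group. The coefficient of variation that edgeR terms biological was 16.7%, a single value over both groups, whose spreads differed.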
